A study of Mus musculus with 6 samples.

Results

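Expression of 8 genes of salt transport in the thick ascending limb and distal tubule was examined in ureteric bud-derived cells sorted from newborn mouse kidneys, with 9 of the array's 55681 probes and 8 of its 20887 named genes. A probe was taken when its RefSeq accession belonged to Slc12a1, Slc12a2, Slc12a3, Bsnd, Kcnj1, Kcnj10, Umod or Wnk1. All 9 probes were well above background in the sample channel on every array and all were tested. The MUT group was 3 pools of cells from Hoxb7cre+; R26RtdTomato; Bdkrb2f/f mice, in which the bradykinin B2 receptor gene Bdkrb2 is conditionally deleted where Hoxb7-driven Cre acts, the ureteric bud lineage. The WT group was 3 pools from Hoxb7cre+; R26RtdTomato; Bdkrb2+/+ mice. Mice of both groups were C57BL/6, carried the Cre driver and the tdTomato reporter, were at postnatal day 1, and had been salt-stressed. Cells were sorted for both GFP and tdTomato, and the number of animals in a pool and the way salt stress was applied are not given in the sources used here. The Cy5 channel of an array held its pool and the Cy3 channel always held RNA of WT pool 1, which on its own array was set against itself; no dyes were swapped. A value below is a log2 ratio to WT pool 1 RNA unless it is called a change, which is the MUT mean minus the WT mean.

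The thick ascending limb and the distal convoluted tubule take up much of the filtered salt without water, through apical cotransporters that run on the sodium gradient set by the sodium pump. Chloride leaves through basolateral channels, while potassium returns to the lumen in the thick limb through ROMK. A kinase cascade headed by the WNK kinases switches the cotransporters on by phosphorylation. Both segments are textbook derivatives of the nephron progenitors and not of the ureteric bud, whereas the potassium channel genes and Bsnd are also used in the collecting duct.

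The regions before the start sites of 6 of the 8 genes, all but Bsnd and Slc12a2, were found in the RefSeq promoter table of assembly GRCm38.p6. Printed here are the 250 bases before the start, 5′ to 3′ on the gene's strand, of the 4 genes that held any of 4 motifs searched on both strands. They are shown because 3 of these genes belong to those that were far lower in MUT pools and the other, Wnk1, changed less. Capitals mark a motif.
Slc12a3, GRCm38.p6, chr8:94328958-94329207, plus strand: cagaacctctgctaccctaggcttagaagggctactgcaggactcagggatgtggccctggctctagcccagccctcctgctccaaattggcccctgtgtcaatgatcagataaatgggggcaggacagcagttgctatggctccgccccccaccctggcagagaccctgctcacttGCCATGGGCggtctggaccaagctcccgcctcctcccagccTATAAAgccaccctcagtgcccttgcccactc
Umod, GRCm38.p6, chr7:119479263-119479512, minus strand: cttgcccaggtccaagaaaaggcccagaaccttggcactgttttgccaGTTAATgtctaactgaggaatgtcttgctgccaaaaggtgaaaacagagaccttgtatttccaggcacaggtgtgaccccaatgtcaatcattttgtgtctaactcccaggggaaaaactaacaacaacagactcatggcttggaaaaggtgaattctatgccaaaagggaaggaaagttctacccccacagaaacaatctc
Kcnj10, GRCm38.p6, chr1:172340960-172341209, plus strand: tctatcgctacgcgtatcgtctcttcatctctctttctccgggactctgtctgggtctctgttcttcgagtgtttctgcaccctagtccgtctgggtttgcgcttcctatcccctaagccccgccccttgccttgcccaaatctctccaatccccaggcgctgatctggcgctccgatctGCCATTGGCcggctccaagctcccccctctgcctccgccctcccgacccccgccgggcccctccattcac
Wnk1, GRCm38.p6, chr6:120038656-120038905, minus strand: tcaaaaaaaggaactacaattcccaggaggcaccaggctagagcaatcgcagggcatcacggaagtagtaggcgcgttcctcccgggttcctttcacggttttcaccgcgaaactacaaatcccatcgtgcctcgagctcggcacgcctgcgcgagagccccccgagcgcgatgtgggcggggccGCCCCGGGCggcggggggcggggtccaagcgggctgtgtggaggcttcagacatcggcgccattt
The motifs were GTTAAT, the core letters bound by HNF1 factors, which 6.43% of 32851 promoters of this length held. AAGGTCA, bound by estrogen-related receptors, was in 4.08%, GCCNNNGGC, bound by TFAP2 factors, in 13.7%, and TATAAA in 12.4%. None of these motifs overlapped another in the printed sequences. Slc12a3 held GCCATGGGC and, closer to its start, TATAAA. Kcnj10 held GCCATTGGC and Wnk1 held GCCCCGGGC, while Umod held GTTAAT. Slc12a1 and Kcnj1 held none of the 4 motifs in this window. CG dinucleotides numbered 4 in Slc12a1, 3 in Slc12a3, 2 in Kcnj1, 17 in Kcnj10, 0 in Umod and 26 in Wnk1, against a median of 6 over all promoters. Among the genes with large falls other than Bsnd, which had no sequence here, no motif was common, and CG counts ranged from 0 to 17.

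The deleted gene gave no check of the labels. The single Bdkrb2 probe stayed at background in both channels of all 6 arrays, and its position relative to the deletion was not determined. Its log2 ratios were -0.02, 0.05 and -0.08 in MUT pools 1 to 3, against 0.12, 0.09 and -0.16 in WT pools 1 to 3. On the slide, row 1 held all MUT pools and WT pool 1, and row 2 held WT pools 2 and 3. Values with the row as a block rest on WT pool 1 as the reference. The direction of small changes depends on scaling. With arrays centred on their median in place of loess the median tested probe changed by 0.23, and with arrays set to 10 spike-in control probes it changed by 0.96 after loess and 0.86 without it. As reported here, after loess, it was near 0.

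The question here is which of these salt transport genes differ when ureteric cells lack the B2 receptor. In MUT pools 6 genes were more than 4-fold lower: the cotransporter genes Slc12a1 and Slc12a3, the potassium channel genes Kcnj1 and Kcnj10, the chloride channel subunit gene Bsnd, and Umod. Wnk1 fell 1.97-fold, and Slc12a2, the basolateral cotransporter, rose 1.79-fold. By limma with Benjamini-Hochberg adjustment over 29003 probes, 7 of the 8 genes fell and 1 rose, where 32.9% of the 14586 genes tested were called. Over all genes 18.9% fell and 14.0% rose. A change of at least 4-fold downwards was called for 0.761% of genes. The pools of both groups did not overlap for any of the 8 genes, which held for 52.6% of genes. The genes were chosen with these results known, so their shares describe them and do not test them. In pooled sorted cells, fewer cells of a type and less RNA per cell cannot be told apart.

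**Figure D1:**
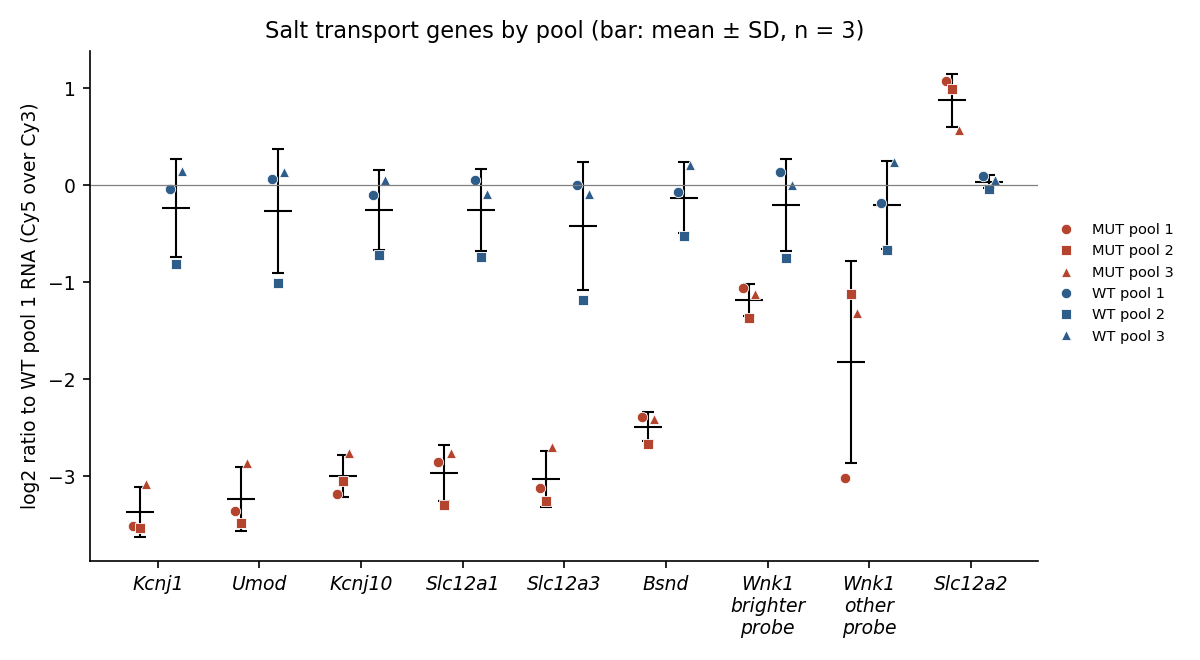
Log2 ratio to WT pool 1 RNA (vertical axis, Cy5 over Cy3) of all 9 probes (horizontal axis), with a point for each pool and bars for mean ± SD (n = 3). The MUT pools of Kcnj1, Umod, Kcnj10, Slc12a1, Slc12a3 and Bsnd all lie below -2.3, the WT pools lie above -1.2, and for Slc12a2 the MUT pools lie above the WT pools.

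Slc12a1 encodes NKCC2, which carries sodium, potassium and chloride across the apical membrane of thick limb cells and is blocked by loop diuretics. It had log2 ratios of -2.85, -3.30 and -2.75 in MUT pools 1 to 3, against 0.055, -0.74 and -0.091 in WT pools 1 to 3. The MUT pools were all low and lay close together, and the lowest WT pool, pool 2, was 2.02 above the highest of them. The gene fell 6.53-fold (log2 change -2.71 ± 0.23 SE, limma adjusted p = 0.000436, n = 3 per group).

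Slc12a3 encodes NCC, the thiazide-sensitive sodium and chloride cotransporter of the distal convoluted tubule. Its log2 ratios were -3.12, -3.25 and -2.70 in MUT pools 1 to 3, against 0.001, -1.18 and -0.087 in WT pools 1 to 3. WT pool 2 stood lower than the other WT pools here by more than for any other of the 8 genes, by 1.14 from their mean, yet the groups stayed 1.52 apart. Slc12a3 fell 6.07-fold (log2 change -2.60 ± 0.31 SE, limma adjusted p = 0.00111, n = 3 per group).

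Slc12a2 encodes NKCC1, the close relative of NKCC2 that sits basolaterally in secretory epithelia and is widely expressed. It had log2 ratios of 1.07, 0.99 and 0.57 in MUT pools 1 to 3, against 0.092, -0.034 and 0.058 in WT pools 1 to 3. All MUT pools were higher, MUT pool 3 the least so, and the WT pools lay close together. The gene rose 1.79-fold (log2 change 0.84 ± 0.15 SE, limma adjusted p = 0.00504, n = 3 per group). With the slide row as a block the change was 0.79 and was no longer called (adjusted p = 0.0876). Over the other alternatives it lay between 0.74 and 1.80 and was called in each.

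Bsnd encodes barttin, the subunit that the kidney's basolateral chloride channels need to reach the membrane. Its log2 ratios were -2.39, -2.66 and -2.40 in MUT pools 1 to 3, against -0.073, -0.52 and 0.21 in WT pools 1 to 3. The MUT pools lay closer together than for any other of the 8 genes. Bsnd fell 5.13-fold (log2 change -2.36 ± 0.19 SE, limma adjusted p = 0.000387, n = 3 per group).

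Kcnj1 encodes ROMK, the apical potassium channel of the thick limb and of principal cells in the collecting duct. It had log2 ratios of -3.51, -3.53 and -3.07 in MUT pools 1 to 3, against -0.042, -0.81 and 0.15 in WT pools 1 to 3. This was the largest fall among the 8 genes and the one at rank 6 from the largest of 14586, at 8.78-fold (log2 change -3.13 ± 0.25 SE, limma adjusted p = 0.000387, n = 3 per group). Kcnj10 encodes Kir4.1, a basolateral potassium channel of the distal nephron. Its log2 ratios were -3.18, -3.04 and -2.76 in MUT pools 1 to 3, against -0.096, -0.72 and 0.058 in WT pools 1 to 3. It fell 6.69-fold (log2 change -2.74 ± 0.21 SE, limma adjusted p = 0.000379, n = 3 per group), with the MUT pools 2.04 below the lowest WT pool.

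Umod encodes uromodulin, the main protein of normal urine, which thick limb cells release. It had log2 ratios of -3.35, -3.48 and -2.86 in MUT pools 1 to 3, against 0.071, -1.01 and 0.14 in WT pools 1 to 3. MUT pool 3 was the highest MUT pool, as it was for Kcnj1, Kcnj10, Slc12a1 and Slc12a3, and WT pool 2 was again low. Umod fell 7.81-fold (log2 change -2.97 ± 0.31 SE, limma adjusted p = 0.000692, n = 3 per group).

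Wnk1, the kinase at the head of the cascade that activates NCC and NKCC2, was the member measured by 2 probes, of accessions NM_001199084 and NM_198703. At the brighter probe, NM_001199084, the log2 ratios were -1.05, -1.37 and -1.12 in MUT pools 1 to 3, against 0.14, -0.75 and 0.001 in WT pools 1 to 3. The groups were 0.31 apart, the smallest gap of the 9 probes, and the log2 change was -0.98 ± 0.23 SE (limma adjusted p = 0.0164). Unlike the other falls, this call was lost without MUT pool 2 (change -0.89, adjusted p = 0.0571), without WT pool 1 (-0.81, 0.0592) and without WT pool 3 (-0.88, 0.0769). The same happened with median centring (-0.64, adjusted p = 0.14) and when arrays were set to the spike-in probes, after loess (-0.02, 0.967) or without it (-0.01, 0.981). At the other probe, NM_198703, MUT pool 1 stood apart: the log2 ratios were -3.01, -1.12 and -1.31 in MUT pools 1 to 3, against -0.18, -0.67 and 0.24 in WT pools 1 to 3. The change there was -1.61 ± 0.48 SE (limma adjusted p = 0.0414), a call lost without any one WT pool (0.0626 to 0.154). Other settings lost it too, such as the slide row as a block (0.238) and the scanner's ratios (0.0987). With arrays set to the spike-in probes the change at this probe was -0.65 after loess and -0.73 without it, not called. Without MUT pool 1 it was -1.02 ± 0.22 SE, close to the -1.04 ± 0.23 SE of the brighter probe without that pool.

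MUT pool 1 lay more than 1 log2 unit below both other MUT pools at 949 of 28940 tested probes with values on all arrays (3.28%). This held for 0 probes in MUT pool 2 and 18 probes in MUT pool 3. None of the 8 genes' representative probes, the brightest tested probe of each gene, was among them. With each pool left out in turn their changes ran from -3.42 to -2.94 for Kcnj1, from -2.55 to -2.19 for Bsnd and from 0.74 to 0.99 for Slc12a2.

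The Cy3 channel gave a measure of the technical spread between arrays, because it held the same WT pool 1 RNA on every array. It does not cover the spread between pools. Whether the scanner software's processing of one channel draws on the other was not examined. On the scanner's processed signal, as log2 relative to each array's 75th percentile, the Cy3 level of a member had an SD of 0.02 (Slc12a2) to 0.10 (Slc12a3) over the 6 arrays. The Cy3 mean on MUT arrays minus that on WT arrays lay between -0.09 (Slc12a3, Bsnd) and 0.14 (Umod). In the Cy5 channel alone, scaled likewise, Slc12a1 was at 1.42 ± 0.28 in MUT pools and 4.16 ± 0.41 in WT pools (SD, n = 3 each). Slc12a2 was at 3.48 ± 0.32 in MUT pools and 2.46 ± 0.13 in WT pools. The differences in Cy5 alone were -2.74 for Slc12a1 and 1.03 for Slc12a2, close to the changes in the ratios.

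Differences between 2 of the genes on the same array do not move when an array is rescaled, and 8 such pairs were compared. Slc12a1 minus Slc12a2 was -3.92, -4.29 and -3.32 in MUT pools 1 to 3, against -0.04, -0.70 and -0.15 in WT pools 1 to 3. The groups differed by -3.55, and by -3.77 to -3.55 over the alternatives in background correction, scaling and ratio source. Pairs were not compared with a block or with pools left out. Slc12a3 minus Slc12a2 differed between the groups by -3.44 and Slc12a1 minus Wnk1, at the brighter Wnk1 probe, by -1.73, without overlap of pools. For these pairs the exact two-sided permutation p was 0.1, the smallest that 3 against 3 pools allow. After Benjamini-Hochberg adjustment over the 8 pairs it was 0.13, so no pair could pass 0.05. At the other Wnk1 probe MUT pool 1 was at -3.01, below Slc12a1 at -2.85. With that probe Slc12a1 minus Wnk1 is positive in MUT pool 1 and the groups overlap.

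Slc12a1 and Slc12a3, of neighbouring segments, were not told apart in their fall. Their difference was 0.27, -0.05 and -0.05 in MUT pools 1 to 3, against 0.05, 0.44 and 0 in WT pools 1 to 3, and the groups overlapped (difference of means -0.11, exact permutation p = 0.5). With the scanner's own ratios that difference was 0.01. Slc12a1 minus Umod also overlapped, at 0.27 ± 0.21 in MUT pools and 0.01 ± 0.25 in WT pools (SD, n = 3 each, exact permutation p = 0.3). Kcnj1 minus Kcnj10, -0.37 ± 0.10 in MUT pools and 0.02 ± 0.09 in WT pools (SD, n = 3 each), did not overlap. Nor did Kcnj1 minus Slc12a1, at -0.41 ± 0.22 in MUT pools and 0.02 ± 0.19 in WT pools. Bsnd minus Slc12a1 was 0.48 ± 0.14 in MUT pools and 0.13 ± 0.23 in WT pools, with pools that did not overlap but lay close. Over the same alternatives, without blocks or left-out pools, the difference between groups stayed between -0.39 and -0.26 for Kcnj1 minus Kcnj10. It stayed between -0.43 and -0.27 for Kcnj1 minus Slc12a1 and between 0.34 and 0.45 for Bsnd minus Slc12a1.

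**Figure D2:**
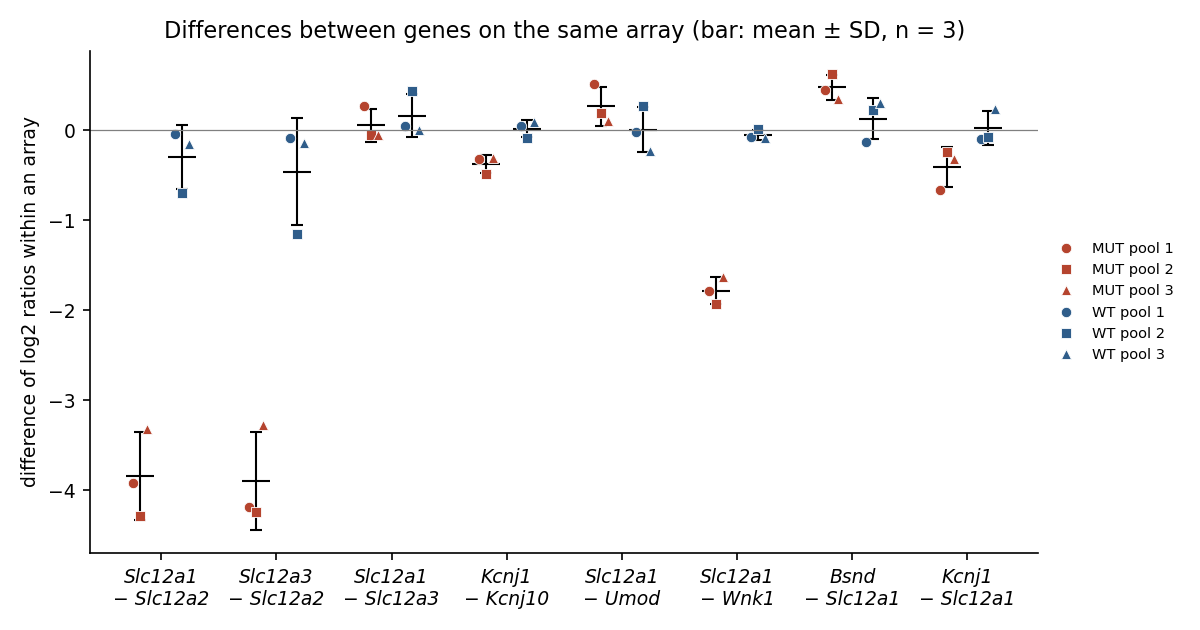
Difference of the log2 ratios of 2 genes on the same array (vertical axis) for 8 pairs (horizontal axis), with a point for each pool and bars for mean ± SD (n = 3). Wnk1 is drawn at its brighter probe only. Slc12a1 and Slc12a3 minus Slc12a2 lie below -3.2 in every MUT pool and above -1.2 in every WT pool, while the pools of Slc12a1 minus Slc12a3 overlap.

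WT pool 2 was lower than the other WT pools for each of the 7 genes that fell. Its log2 ratio minus the mean of WT pools 1 and 3 was -0.58 for Bsnd, -0.70 for Kcnj10, -0.72 for Slc12a1, -0.81 for Wnk1, -0.86 for Kcnj1, -1.11 for Umod and -1.14 for Slc12a3. For Slc12a2 it was -0.11. The spread of the WT group in these genes therefore came mostly from this pool. Without it Slc12a1 changed by -2.95, Slc12a3 by -2.98 and Umod by -3.34.

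Related genes were taken from the Slc12 family, the WNK kinase cascade, the channels, claudins, exchangers and sodium pump of these segments, and their regulators and calcium and magnesium transport. Of these 55 genes 50 were tested, and 37 fell, 2 rose and 11 were not called, where 18.9% of all genes fell and 14.0% rose. The split was 31 lower and 2 higher with median centring, 30 lower and 0 higher with slide row as a block, and 17 lower and 10 higher when loess was followed by scaling to the spike-in probes. In that last setting 6 of the 37 genes that fell had a change of 0 or above. Klhl3, of the complex that degrades WNK kinases, had no named probe, and Wnk3, Kcnt1, Slc9a3 and Slc9a4 did not pass the filter on dim probes.

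Among channels, claudins and exchangers 8 of 10 tested genes fell and 1 rose (median change -2.10, against -0.018 over all genes). The one not called, named after its value was seen, was Kcnj15, at -0.16 ± 0.24 SE. Kcnj16, which encodes Kir5.1, the partner of Kir4.1, changed by -2.19 ± 0.23 SE. Cldn10 and Cldn16, claudins of the thick limb's paracellular cation path, changed by -2.21 ± 0.16 SE and -2.19 ± 0.20 SE, and Slc9a2, a sodium and proton exchanger, by -1.82 ± 0.19 SE. Kcnma1, the large-conductance potassium channel, was the gene that rose, by 0.48 ± 0.12 SE (limma adjusted p = 0.0239). At this probe it was not called without WT pool 2 (adjusted p = 0.0742), without WT pool 3 (0.101) or with the slide row as a block (0.276). A dimmer probe of Kcnma1 also rose, by 0.65 ± 0.12 SE (limma adjusted p = 0.00621).

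Of the sodium pump, Fxyd2, a regulatory subunit, fell (log2 change -2.16 ± 0.25 SE). Atp1b1, the beta subunit, also fell (log2 change -3.11 ± 0.37 SE), with MUT pool 1 at -4.14 against -2.98 and -2.64 in the other MUT pools.

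In the kinase cascade 7 of 11 tested genes fell and none rose (median change -1.06). Wnk4, the WNK kinase of the distal convoluted tubule, had log2 ratios of -1.48, -1.93 and -1.71 in MUT pools 1 to 3, against -0.21, -0.59 and -0.07 in WT pools 1 to 3, and changed by -1.41 ± 0.17 SE. Stk39, which encodes SPAK, the kinase that WNKs activate and that phosphorylates the cotransporters, changed by -1.06 ± 0.13 SE. Sgk1 and Nedd4l, a kinase and a ubiquitin ligase of the aldosterone response, changed by -1.72 ± 0.12 SE and -1.36 ± 0.12 SE. Ppp1r1a, a phosphatase inhibitor, changed by -2.04 ± 0.22 SE and Cab39l, of the scaffold family that assists SPAK, by -0.64 ± 0.12 SE. When loess was followed by spike-in scaling only 1 of the 7 falls, Ppp1r1a at -1.08, was called. There Sgk1 changed by -0.75, Wnk4 by -0.45, Nedd4l by -0.40, Stk39 by -0.10 and Cab39l by 0.32, none of them called. Named after their values were seen, the 4 genes that were not called were Wnk2 at -0.08 ± 0.15 SE, Cab39 at -0.14 ± 0.12 SE, Cul3 at -0.21 ± 0.13 SE and Oxsr1, the other kinase that WNKs activate, at 0.32 ± 0.24 SE. A dimmer probe of Oxsr1 changed by -0.43 ± 0.11 SE and was called lower (limma adjusted p = 0.0269), so its probes disagree.

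**Figure D3:**
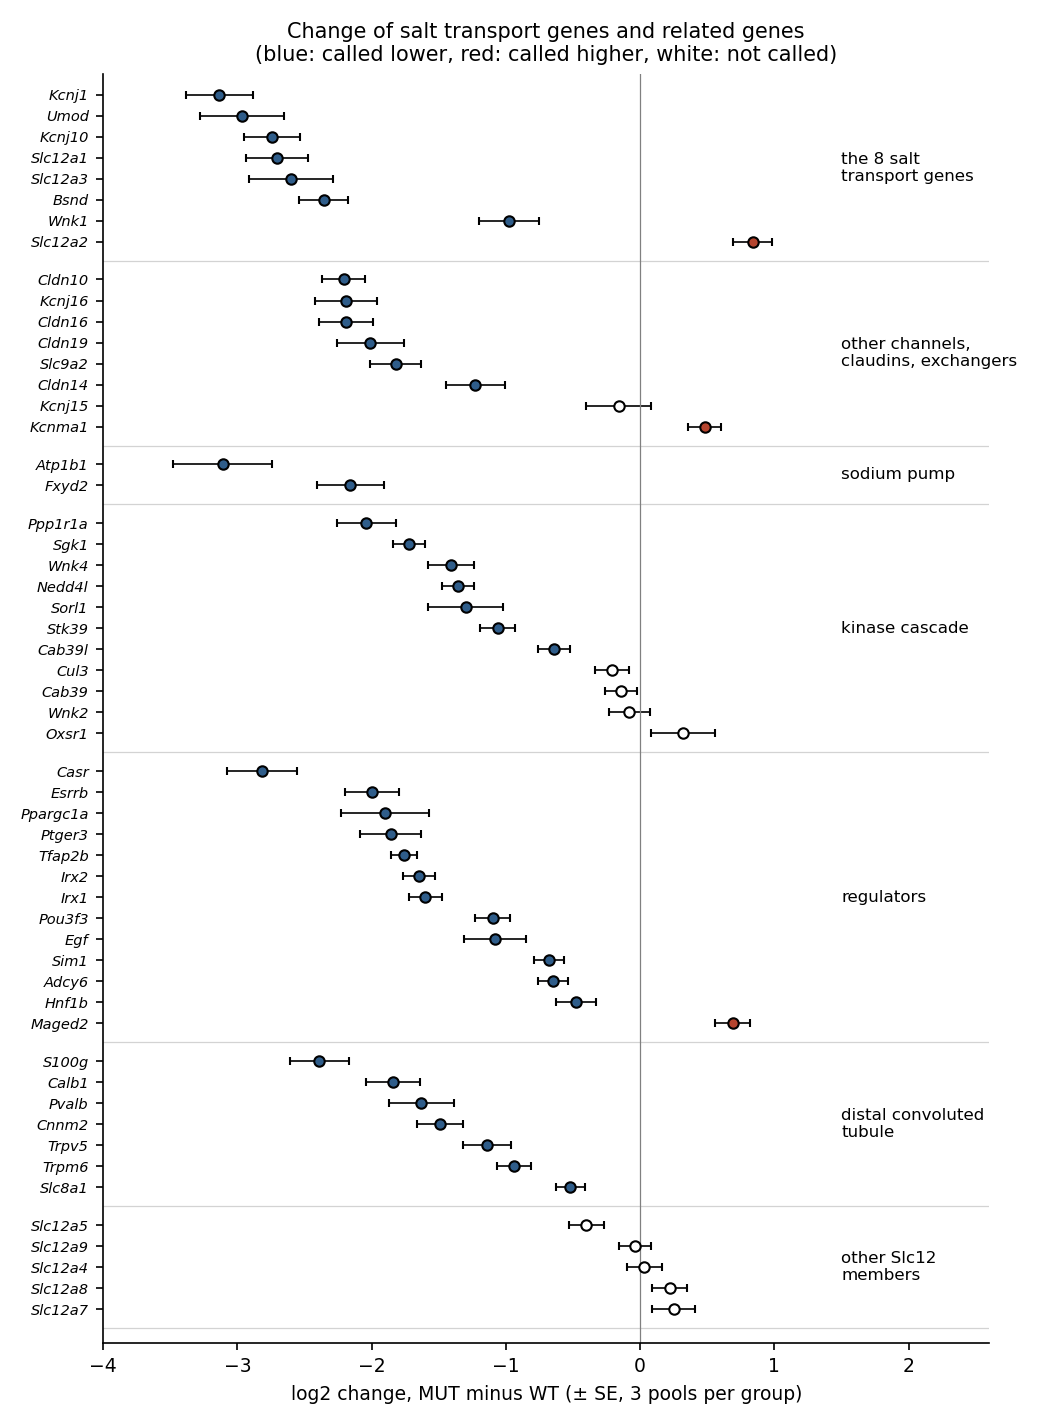
Log2 change, MUT minus WT, with its SE (horizontal axis; 3 pools per group) for the 8 genes and 46 related genes in 6 groups (vertical axis). Blue points were called lower, red higher and white not called; 34 related genes are blue and 2 red, and the other Slc12 genes are white.

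Regulators of these segments fell in 12 of 13 tested cases and rose in 1 (median change -1.60). Casr, the calcium receptor of the thick limb, had log2 ratios of -3.14, -3.04 and -2.46 in MUT pools 1 to 3, against 0.14, -0.58 and 0.25 in WT pools 1 to 3, and changed by -2.82 ± 0.26 SE. Among transcription factor genes Tfap2b changed by -1.76 ± 0.10 SE, Irx1 by -1.60 ± 0.12 SE, Irx2 by -1.65 ± 0.12 SE, Esrrb by -2.0 ± 0.20 SE and Pou3f3 by -1.10 ± 0.13 SE. After spike-in scaling 4 of the 12 falls were called, Casr at -1.86 and Esrrb at -1.04 among them. Tfap2b was then at -0.79, Irx2 at -0.69, Irx1 at -0.64 and Pou3f3 at -0.14, none of them called. Maged2, whose human counterpart is mutated in a transient antenatal form of Bartter syndrome, rose by 0.69 ± 0.13 SE (limma adjusted p = 0.00606), but it was not called with the slide row as a block (0.122).

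All 7 calcium and magnesium handling genes of the distal convoluted tubule fell (median change -1.49). S100g and Calb1, calcium-binding proteins, changed by -2.39 ± 0.22 SE and -1.84 ± 0.20 SE. Pvalb, parvalbumin of the early distal convoluted tubule, changed by -1.63 ± 0.24 SE, and Cnnm2, of magnesium transport, by -1.49 ± 0.17 SE. Trpv5 and Trpm6, the channels for calcium and magnesium entry, changed by -1.14 ± 0.18 SE and -0.94 ± 0.13 SE. After spike-in scaling 2 of the 7 falls were called, S100g at -1.43 and Calb1 at -0.88. Pvalb was then at -0.67, Cnnm2 at -0.53, Trpv5 at -0.18 and Trpm6 at 0.03, none of them called.

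Other Slc12 family genes were not called. Slc12a4 and Slc12a7, potassium and chloride cotransporters of many tissues, changed by 0.03 ± 0.13 SE and 0.25 ± 0.16 SE. Slc12a8 and Slc12a9 changed by 0.22 ± 0.13 SE and -0.04 ± 0.12 SE. Slc12a5, known from neurons, changed by -0.40 ± 0.13 SE (limma adjusted p = 0.0577), with pools that did not overlap. Of the family genes named here, Slc12a1 and Slc12a3 fell and Slc12a2 rose.

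Genes whose 6 log2 ratios lay closest to those of a member were found by root-mean-square difference over the 6 arrays among genes outside the 8, as a description. For Slc12a1 these were Eprn (0.135), Scn4b (0.15), Kng1 (0.187), Pgam2 (0.207) and Slc26a4 (0.212). Slc12a3 lay nearest to Slc4a1 (0.131), Defb1 (0.139), Scn4b (0.140), Klk1b24 (0.158) and Pgam2 (0.170), so Scn4b and Pgam2 stood near both. Slc26a4 and Slc4a1 encode anion exchangers of intercalated cells in the collecting duct. Kng1 and Klk1b24 have near-identical paralogs, and their probes may read those too. For Slc12a2 the nearest were Sall1 (0.083), a transcription factor of nephron progenitors, Gli2 (0.084), of hedgehog signalling, Tram1l1 (0.084), Ddx43 (0.087) and B3galnt1 (0.101). For Wnk1 they were Tinag (0.108), Cox4i1 (0.116), Rdh16f2 (0.121), Asb9 (0.127) and Epas1 (0.127). Among the 8 genes the closest pair was Kcnj1 and Umod (0.144) and the farthest Slc12a2 and Kcnj1 (3.04).

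Markers of other cells moved in both directions beside these changes, where 18.9% of all genes fell and 14.0% rose. Among collecting duct genes, all 10 tested intercalated cell markers, such as Slc4a1, Slc26a4 and Slc4a9, and all 9 tested principal cell markers, such as Aqp2, Aqp3 and Aqp4, fell. The median of the 6 genes with large falls was -3.15, -3.27 and -2.76 in MUT pools 1 to 3, against -0.02, -0.77 and 0.10 in WT pools 1 to 3. That of the intercalated cell list was -2.24, -2.62 and -2.24 in MUT pools, against 0.08, -0.34 and 0.31 in WT pools. For principal cells it was -2.0, -2.01 and -1.81 in MUT pools, against -0.09, -0.09 and 0.08 in WT pools, so WT pool 2 was not low there. Of 12 ureteric trunk and tip genes 9 fell, Hoxb7 among them, and 3 were not called, Ret and Wnt11 among them. Hoxb7 changed by -0.70, the smallest of these 9 falls. Spike-in scaling after loess raised every change by 0.96, so the direction of Hoxb7 turns there. The median change of the 12 genes was -1.48, a fall larger than that shift.

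Nephron progenitor genes, such as Six2 and Cited1, rose in 7 of 8 tested cases, all but Eya1, with medians of 2.19, 2.06 and 1.54 in MUT pools 1 to 3, against 0.14, 0.07 and -0.01 in WT pools 1 to 3. Renal stroma genes, such as Foxd1, Pdgfra and Pdgfrb, rose in 7 of 9 tested cases. Their medians were 1.59, 1.31 and 1.14 in MUT pools 1 to 3, against 0.12, -1.0 and -1.41 in WT pools 1 to 3. WT pool 1, the only WT pool in the slide row of the MUT pools, was thus the nearest to them. Leukocyte genes, such as Cd52 and Coro1a, rose in 6 of 8 cases, while Ptprc, the pan-leukocyte marker, fell. Endothelial genes, such as Pecam1, Cdh5 and Kdr, fell in 7 of 8 cases. Over all genes 18.9% fell and 14.0% rose. Scaling to the spike-in probes after loess raised every change by 0.96. This is more than the falls of Pecam1 (-0.81), Cdh5 (-0.69) and Ptprc (-0.43), whose direction then turns, but less than that of Kdr (-1.35). Of 4 tested erythroid genes 3 fell, with medians of -2.32, -2.66 and -2.59 in MUT pools 1 to 3, against -0.01, -1.15 and 0.29 in WT pools 1 to 3. One of them, Slc4a1, also stands in the intercalated cell list. Of 10 proximal tubule genes 4 fell, among them not Lrp2, Cubn or Slc34a1, and of 8 podocyte genes 2 rose, not Nphs1 or Podxl. Scnn1g, Tbx18, Epb42 and Klf1 did not pass the filter on dim probes. The part that the mix of cell types has in the change of the 8 genes was not tested.

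**Figure D4:**
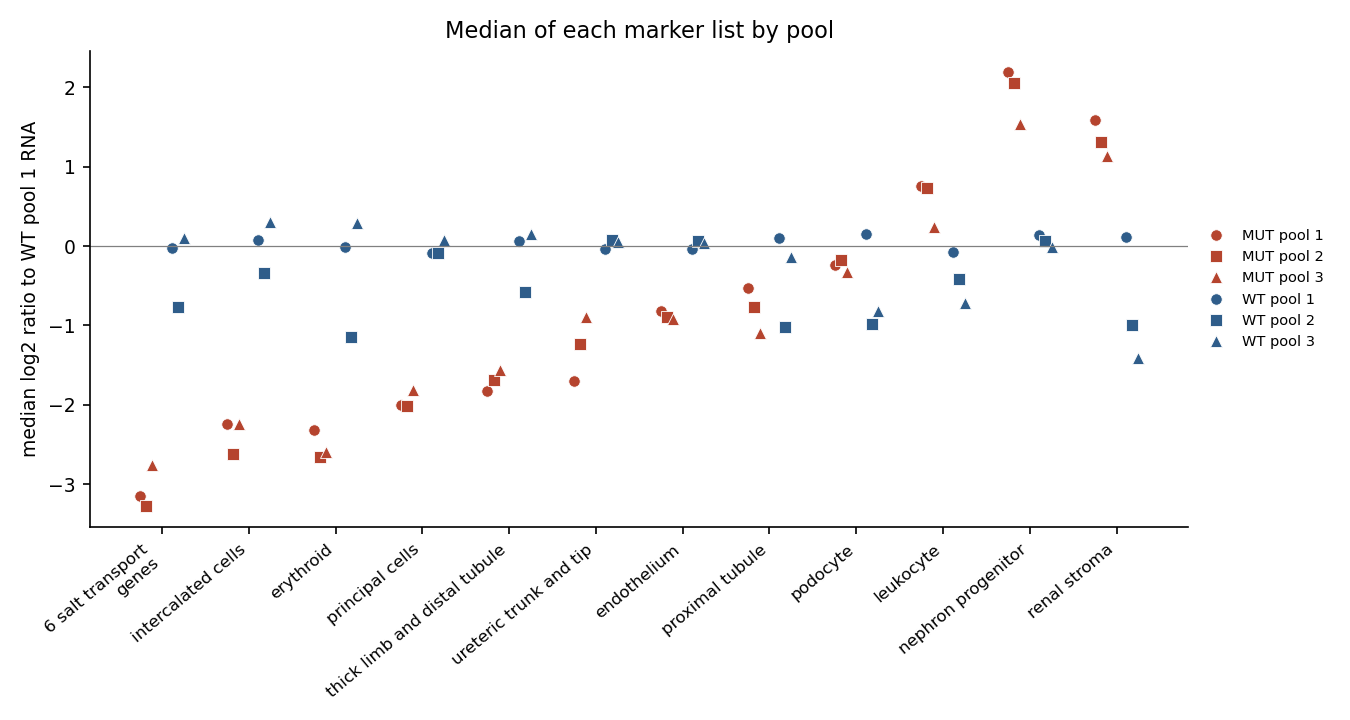
Median log2 ratio to WT pool 1 RNA (vertical axis) in each pool for the 6 genes with large falls and for 11 marker lists (horizontal axis), ordered by change, with a point for each pool. In every MUT pool the lists of intercalated, principal and erythroid cells lie below -1.8. Those of nephron progenitors and renal stroma lie above 1.1 there.

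The 6 large falls kept their direction and call under every alternative, but their size moved with the scaling. When loess was followed by scaling to the spike-in probes, Kcnj1 changed by -2.17 ± 0.38 SE, Slc12a1 by -1.75 ± 0.38 SE and Slc12a2 by 1.80 ± 0.38 SE, while the median probe was 0.96 higher. Relative to that median the changes were as reported. Within row 1 of the slide, MUT pools 1 to 3 against WT pool 1 alone, the differences were -3.33 for Kcnj1, -3.02 for Slc12a1 and Slc12a3, and 0.79 for Slc12a2. Row 2 held WT pools only and gives no value.

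**Figure D5:**
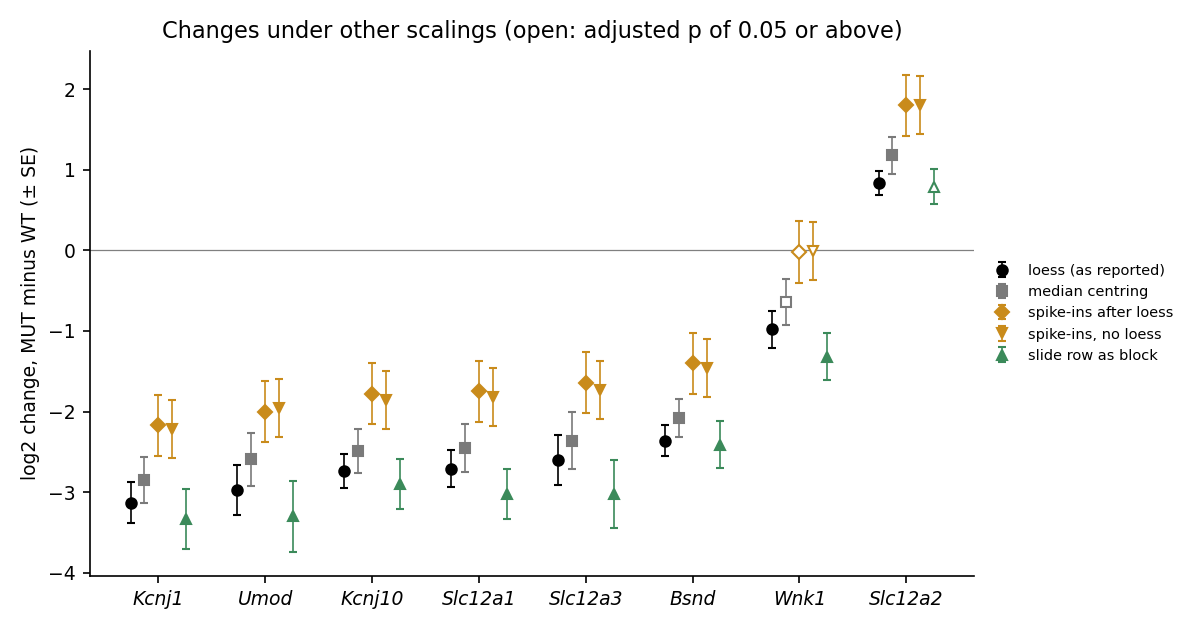
Log2 change, MUT minus WT, with its SE (vertical axis) of the 8 genes (horizontal axis) as reported and under 4 other settings; open symbols mark an adjusted p of 0.05 or above. Slc12a1, Slc12a3, Bsnd, Kcnj1, Kcnj10 and Umod stay at or below -1.40 throughout, and Slc12a2 stays positive. Wnk1, drawn at its brighter probe only, comes to -0.02 and -0.01 with the spike-in controls.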

How the data were processed

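RNA of 3 MUT and 3 WT pools was hybridised to 6 Agilent mouse arrays of 2 colours, from 0.5 µg of total RNA per labelling, per the labels' protocols. The submitters' processing notes name Agilent Feature Extraction 10.7.3.1, whose deposited files give the median intensity of a spot and of its local background. They also hold the scanner software's log10 ratio, which the deposited value table repeats within 0.00499, with a median of 0 on every array. Probes had 1 spot each for all 8 genes. All arrays share a slide and scan, per the file headers.

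Local background was removed with limma's normexp (offset 50), then loess was applied within each array, without outlier spots. None was saturated. Tested probes had Cy5 signal well above background on every array of at least 1 group. Genes were named through RefSeq accessions in a GRCm38.p6 table (27509 probes) and represented by their brightest tested probe. The file headers name another assembly. MUT and WT were compared by limma 3.58.1 (R 4.3.3) with Benjamini-Hochberg adjustment over 29003 probes and a threshold of 0.05. Values with ± SE come from this fit. The pipeline was tested on simulated data.

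The members and lists were chosen with earlier results of these data known. Named are all members, in each related list the 6 genes with the smallest p and called genes against the list's direction, and for 4 members the 5 nearest genes. A few genes that these rules cover are not reported here. Pools count as replicates per the labels, and p-values measure the spread between pools. The number of arrays limits the precision. Alternatives changed the background correction, scaling, filter, ratio source, blocks, test settings and pools.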

Additional observations from a re-analysis of the deposited data

How the results depend on the processing

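The number of called probes was 7602, and scaling to the spike-in probes gave 19280 after loess and 16908 without, where 98.9% and 98.4% of calls were higher in MUT pools against 44.1% as reported. It was 2189 when slide row was a block and 3860 to 9534 with each pool left out in turn (4918 without WT pool 1 and 3860 without WT pool 3). Median centring gave 5742, of which 77.4% were higher. The number of members called stayed between 7 and 8. Slc12a2 lost its call with the slide row as a block (0.79). At its brighter probe Wnk1 lost it with median centring (-0.64), with spike-in scaling after loess (-0.02) and without loess (-0.01). That probe ranged from -1.25 to -0.81 with each pool left out. Slc12a1 minus Slc12a3 turned from -0.11 to 0.01 with the scanner's ratios. The cause of these changes was not tested. Quantile normalization of average intensity leaves ratios unchanged by construction. Pools of the same number correlated in their deviations from the group means at 0.14, 0.07 and 0.20. These correlations are low, and whether the numbers pair the samples was not settled by them. With pool number as a replicate block 7241 probes and all 8 members were called, and each pool correlated best with its own number.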

Other observations

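Over the tested probes the SD of the log2 ratio difference between 2 arrays was smallest for MUT pool 2 against MUT pool 3 (0.21). MUT pool 1 differed from these pools by 0.45 and 0.44.

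A few related genes outside the naming rule are given as values. Ppargc1a, a regulator of mitochondrial genes, changed by -1.90 ± 0.33 SE, with log2 ratios of -2.64, -1.32 and -1.36 in MUT pools 1 to 3. Its other probe changed by -1.56 ± 0.14 SE. Sorl1, a sorting receptor for NKCC2, changed by -1.30 ± 0.28 SE, again with MUT pool 1 lowest (-1.91, -0.92 and -0.78 in MUT pools 1 to 3). They were chosen after their values were seen.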
